A study of Mus musculus with 8 samples.

Results

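Transcript levels of 44 genes of the cell division cycle were followed in CD4+ CD25+ T cells of mouse visceral adipose tissue and spleen. CD4 and CD25 on the surface enrich for regulatory T cells (Tregs), which restrain immune responses. The 44 genes were given by name and all 44 were found among the 45232 gene names of the deposited table. They were split by role into 10 S phase genes (the Mcm, Rrm, Tyms and Pcna genes), 8 other genes of S phase entry and replication, and 26 genes that act mainly in mitosis. The study held 8 libraries from C57BL/6 mice in 4 groups of 2, which were KO adipose tissue, WT adipose tissue, KO spleen and WT spleen. KO stands for the genotype that the labels call Id2 CKO. The sources used here do not give the Cre or other agent behind that genotype, the part of Id2 that was removed, or the age and sex of the mice. At least 500 cells were sorted per library per the labels. The libraries of a group are numbered 2 and 3, and nothing in the labels says whether they came from separate mice. P-values therefore measure only how far these libraries spread, and some of that spread may be technical.

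A dividing cell copies its DNA in S phase and separates the copies in mitosis, and most genes needed for either step are transcribed mainly in cells that are cycling. Genes of S phase are switched on by E2F factors as a cell leaves the resting state. Genes of mitosis peak later, and many of them carry a promoter element named CHR that is bound by the DREAM and MuvB complexes, which repress them in resting cells. Tregs of adipose tissue are a population that is known to expand locally in mice. In bulk samples, fewer cycling cells and less RNA of these genes per cycling cell cannot be told apart.

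Values are in TPM, a share of all transcripts corrected for gene length, so levels can be set against each other between genes. Read depth cannot be recovered from TPM, so the depth is unknown. The number of genes above 0 ranged from 13184 (KO adipose 2) to 20684 (KO adipose 3), and 11.8% of the tested genes were at 0 in KO adipose 2 against 2.42% to 5.85% in the other 7 libraries. Id2, the targeted gene, had 1499 and 1298 TPM in KO and 2249 and 3679 TPM in WT adipose tissue, and 72.1 and 265 TPM in KO and 274 and 346 TPM in WT spleen. Transcript of the targeted gene was thus present in all KO libraries, and the table gives 1 value per gene. All 11 T cell core genes were above 0 in every library, but their sum was uneven. It was 9486 and 3571 TPM in KO and 9198 and 7041 TPM in WT adipose tissue. In spleen it was 9804 and 7870 TPM in KO and 9413 and 7571 TPM in WT. All 11 had negative log2 fold changes of KO against WT in adipose tissue (median -0.58, against -0.27 over all tested genes). Foxp3, which defines the Treg lineage, had 7.4 TPM in the KO adipose library numbered 2 and 8.27 TPM in the KO spleen library of that number, against 93.5 to 266 TPM in the other 6 libraries. The 7 Treg identity genes, Foxp3 among them, summed to 1783 and 994 TPM in KO and 1961 and 1482 TPM in WT adipose tissue. In spleen they summed to 1670 and 2084 TPM in KO and 2330 and 2194 TPM in WT. None of the 7 was at 0 in any library, and their sum was lowest in KO adipose 3. Markers of other cells also differed between the adipose libraries. The 8 fibroblast and mesothelium genes summed to 729.7 and 3481 TPM in KO and 0.328 and 4.76 TPM in WT adipose tissue, with Msln, Upk3b and Pdgfra at 0 in both WT libraries. The 11 macrophage and monocyte genes summed to 15.8 and 13412 TPM in KO and 31.4 and 230.0 TPM in WT adipose tissue, with Adgre1, Fcer1g, Tyrobp, C1qc and Mrc1 at 0 in KO adipose 2. The 5 listed erythroid genes, mostly hemoglobin, summed to 24599 and 41287 TPM in KO and 37 and 2668 TPM in WT adipose tissue, with Slc4a1 at 0 in both WT libraries. The 6 B cell genes summed to 1339 and 564 TPM in KO and 844 and 699.9 TPM in WT adipose tissue, with Cd79a, Ms4a1 and Pax5 at 0 in KO adipose 2 and Cd79a at 0 in WT adipose 3. The 6 CD8 T and NK cell genes summed to 107 and 10.8 TPM in KO and 64.2 and 16.1 TPM in WT adipose tissue. The part of these cells in the levels below was not tested.

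Summed levels of the genes of each role were lowest in KO adipose tissue, and the libraries of a group lay far apart. The 10 S phase genes summed to 293 and 388 TPM in KO and 1183 and 561 TPM in WT adipose tissue. In spleen these sums were 630.3 and 889 TPM in KO and 480.1 and 626 TPM in WT. KO adipose tissue thus held the lowest S phase sums of the series, without overlap with any other group. The 26 mitosis genes summed to 70.1 and 494 TPM in KO and 1170.3 and 714 TPM in WT adipose tissue, and to 639.9 and 1093 TPM in KO and 584 and 565 TPM in WT spleen. The 8 other replication genes summed to 29.4 and 43.6 TPM in KO and 159 and 59.5 TPM in WT adipose tissue. In spleen they summed to 110 and 137 TPM in KO and 62 and 101 TPM in WT. For both of these roles, too, the KO adipose sums were the lowest, without overlap with any other group. The S phase sum was 4.18 times the mitosis sum in KO adipose 2 and between 0.786 and 1.11 times in the other 7 libraries, so KO adipose 2 stood apart in its mitosis genes above all. In it 10 of the 44 members were at 0, against 1 in KO adipose 3 and 0 in the other 6 libraries.

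**Figure D1:**
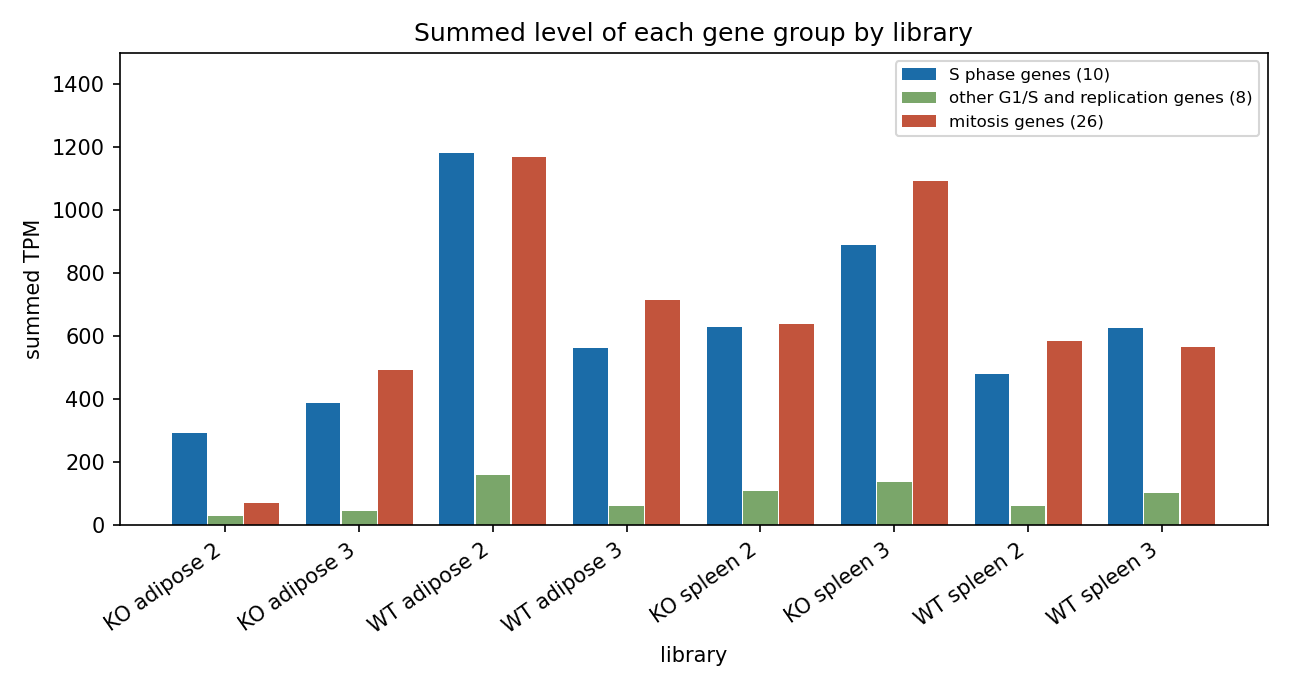
Summed TPM of the 10 S phase genes, the 8 other G1/S and replication genes and the 26 mitosis genes in each of the 8 libraries (bars start at 0). The mitosis sums of the KO adipose libraries are 70.1 and 494 TPM, against 1170.3 and 714 TPM in the WT adipose libraries.

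Library by library, 35 of the 44 members had their lowest level in KO adipose 2 and 5 in KO adipose 3. The highest level fell in WT adipose 2 for 22 members, in KO spleen 3 for 18, in KO spleen 2 for 3 and in WT spleen 3 for 1. The level of a member therefore depended strongly on the individual library. Between the libraries of a group, numbered 3 against 2, the median log2 difference over the members was 1.75 in KO adipose tissue, -1.03 in WT adipose tissue, 1.28 in KO spleen and 0.59 in WT spleen. Over all 13376 tested genes it was 0.25, 0.016, 0.47 and 0.26 in the same order of groups. In KO adipose tissue the median was 2.23 for the mitosis genes, 0.56 for the S phase genes and 0.11 for the 8 other replication genes, of which 4 were higher and 3 lower in number 3. In that group the medians of the mitosis genes and of the S phase genes were thus above the median of all tested genes, and that of the other replication genes was below it. The pairwise correlation over the 8 libraries had a median of 0.82 among the 325 pairs of mitosis genes and 0.72 among the 45 pairs of S phase genes. Among the 260 pairs of an S phase gene with a mitosis gene it was 0.74, so the S phase genes did not form a set apart. These values are a description only, since all pairs share the same libraries. Against the median of the mitosis genes, Bub1 (r = 0.997), Kif11 (0.979) and Nuf2 (0.976) ran closest, and Ccne2 (0.285) and Pcna (0.352) least close. Bub1, Kif11 and Nuf2 are themselves part of that median, which raises their values, while Ccne2 and Pcna are not.

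**Figure D2:**
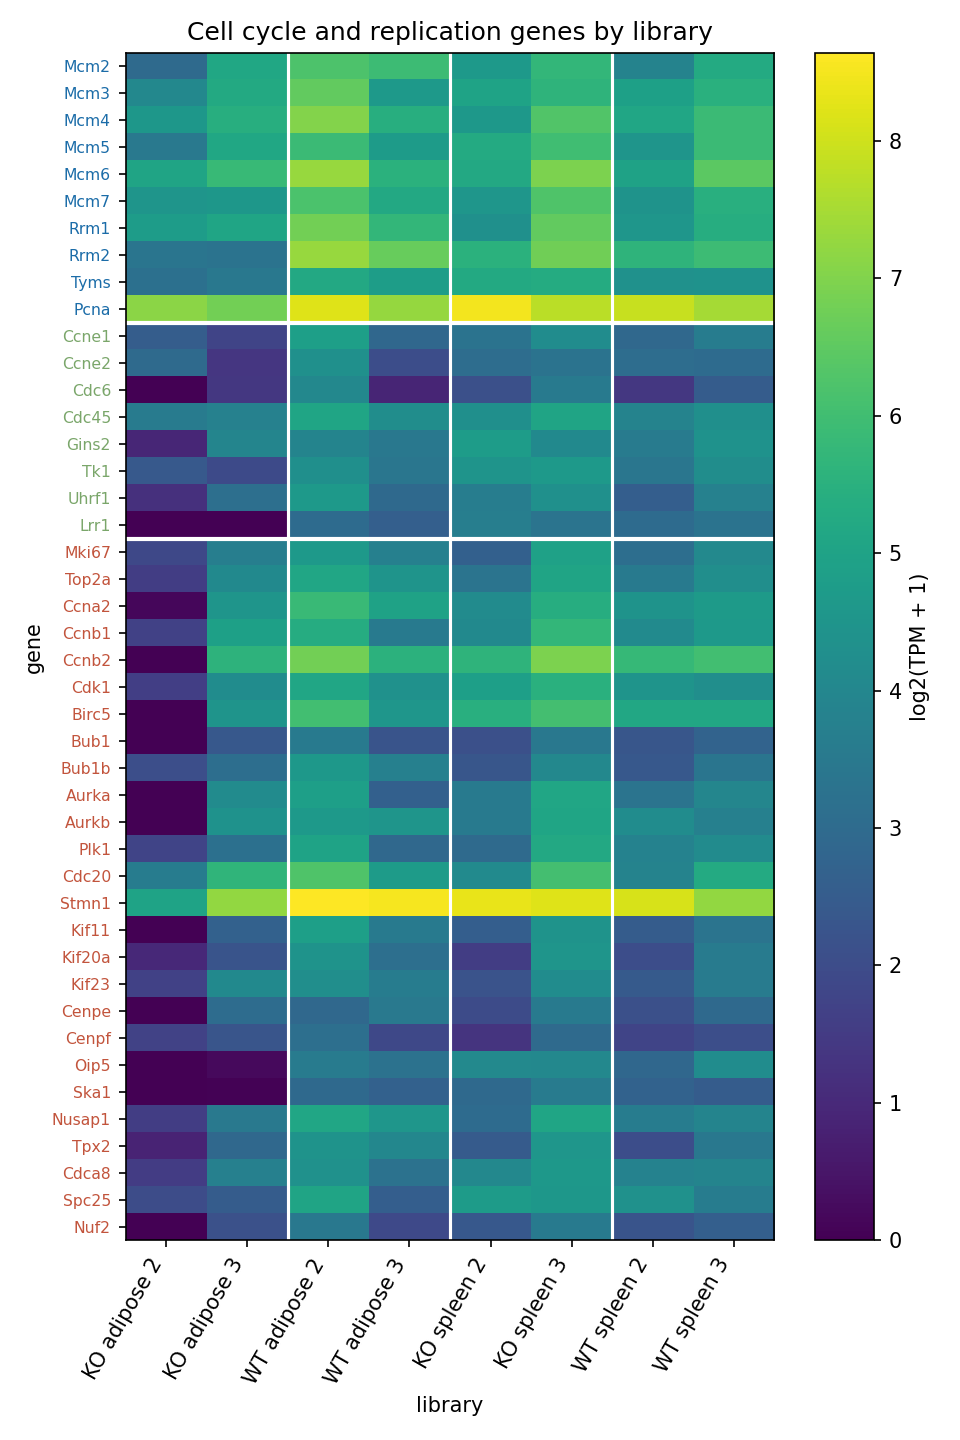
Level of each of the 44 members, as log2(TPM + 1), in each library; rows are grouped as S phase genes, other G1/S and replication genes and mitosis genes from top to bottom, and label colours mark the groups. The column of KO adipose 2 is dark through most of the mitosis genes, while in KO adipose 3 the dark cells are few and include Oip5, Ska1 and Lrr1.

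The first comparison sets the libraries labelled Id2 CKO against WT in adipose tissue, where Id2 transcript was lower in both KO libraries but present. All 44 members had negative log2 fold changes of KO against WT, with a median of -1.67, where the median over all tested genes was -0.27. By limma on log2(TPM + 1), adjusted over all 13376 genes, 1 member passed, Rrm2, lower in KO. Over all genes 0.284% passed in either direction, 0.277% as higher and 0.00748% as lower in KO, which is Rrm2 itself. At an unadjusted p under 0.05, 15 of 44 members stood out, where 6.97% of all tested genes did. Both KO libraries were below both WT libraries for 25 of 44 members, where 27.5% of all tested genes were, and above them for 0 members, where 7.66% of all tested genes were. The members move together between libraries, so these are not 25 separate observations.

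Rrm2 encodes the small subunit of ribonucleotide reductase, which makes the deoxynucleotides for DNA synthesis and whose level is known to follow the cell cycle. It was at 9.3 and 8.76 TPM in KO and 158 and 98.9 TPM in WT adipose tissue, as well as at 44.5 and 107 TPM in KO and 47.9 and 60.3 TPM in WT spleen. The KO adipose libraries were close to each other and below every other library. The fall in KO against WT adipose tissue passed the test (-3.65, SE 0.47, limma adjusted p = 0.0228). With any 1 library left out, which leaves a lone library in its group, the fold change of Rrm2 ranged from -3.99 to -3.32. Without KO adipose 2 it was -3.69, a value that describes KO adipose 3 alone. The call was lost without KO adipose 3, either WT adipose library or either WT spleen library. Rrm1, the large subunit of the same enzyme, was at 26.1 and 33 TPM in KO and 112 and 51.9 TPM in WT adipose tissue and did not pass (-1.35, SE 0.72, limma adjusted p = 0.748). Per length, Rrm2 stood at 0.356 and 0.266 times the level of Rrm1 in KO adipose tissue, against 1.42 and 1.90 times in WT adipose tissue. In spleen the ratio was 2.31 and 1.14 in KO, against 2.14 and 1.48 in WT. The ratio of both subunits was therefore below 1 in the KO adipose libraries and above 1 in the other 6.

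Tyms, which makes thymidylate for DNA, was at 8.04 and 9.91 TPM in KO and 36.4 and 26.8 TPM in WT adipose tissue, without overlap (-1.70, SE 0.37, limma adjusted p = 0.179). Pcna, the sliding clamp of the polymerases, was the highest S phase gene, at 141 and 111 TPM in KO and 295 and 152 TPM in WT adipose tissue (-0.76, SE 0.42, limma adjusted p = 0.751). Neither passed, although each KO value was below all 6 other libraries of the series. The Mcm genes encode the 6 subunits of the replicative helicase, and all but Mcm7 were clearly lower in KO adipose 2 than in KO adipose 3. Mcm7 was at 21.8 and 22.7 TPM in KO and 71.3 and 35.9 TPM in WT adipose tissue, so its KO libraries were close to each other. Mcm2 was at 6.92 and 34.5 TPM in KO and 73.8 and 59.1 TPM in WT adipose tissue (-2.0, SE 0.77, limma adjusted p = 0.615). Mcm6 was at 31.6 and 55.3 TPM in KO and 155 and 44.7 TPM in WT adipose tissue. For Mcm3, Mcm4, Mcm5 and Mcm6, KO adipose 3 lay above WT adipose 3, so their groups overlapped, while Mcm2 and Mcm7 were without overlap. Mcm3 was at 15.2 and 37 TPM in KO and 92.7 and 24.7 TPM in WT adipose tissue. Mcm5 was at 10.2 and 34.3 TPM in KO and 58.1 and 25.9 TPM in WT adipose tissue. None of the 6 helicase genes passed (limma adjusted p = 0.615 for Mcm2 to 0.795 for Mcm6).

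Among the other genes of S phase entry and replication, Lrr1 was listed at 0 in both KO adipose libraries. It encodes a substrate receptor of a ubiquitin ligase that, in worm embryos and frog egg extracts, takes the helicase off DNA after replication. Its level was 7.04 and 5.18 TPM in the WT adipose libraries, 12 and 8.95 TPM in KO spleen and 7.07 and 8.8 TPM in WT spleen. In adipose tissue the difference did not pass with a pseudocount of 1 (-2.82, SE 0.52, limma adjusted p = 0.0972) and did with 0.1 (adjusted p = 0.0472). Tk1, the salvage enzyme thymidine kinase, was at 4.34 and 2.87 TPM in KO and 18.6 and 9.47 TPM in WT adipose tissue (-1.66, SE 0.53, limma adjusted p = 0.501). Ccne1, a cyclin that drives S phase entry, was at 4.91 and 2.43 TPM in KO and 28.1 and 6.39 TPM in WT adipose tissue (-1.70, SE 0.74, limma adjusted p = 0.717). Cdc45, a part of the active helicase, was at 11 and 13 TPM in KO and 32.7 and 17.7 TPM in WT adipose tissue (-0.95, SE 0.47, limma adjusted p = 0.747). For these 4 genes both KO libraries lay below all other libraries, although none passed in KO against WT. For Ccne2, Cdc6, Gins2 and Uhrf1 the genotypes overlapped. Gins2, another part of the active helicase, was at 0.91 and 14.3 TPM in KO and 14 and 9.98 TPM in WT adipose tissue. Uhrf1, which brings the maintenance DNA methyltransferase to new DNA, was at 1.31 and 7.82 TPM in KO and 24 and 6.77 TPM in WT adipose tissue. Cdc6, which loads the helicase onto DNA, was under 1 TPM in both KO adipose 2 and WT adipose 3, at 0.023 and 1.64 TPM in KO and 15.5 and 0.847 TPM in WT adipose tissue.

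The 26 mitosis genes had negative log2 fold changes in adipose tissue from -3.39 to -0.53 (median -1.77), and none passed. Of these, 15 were lower without overlap, where 27.5% of all tested genes were. Oip5, which helps place the centromere histone, was at 0 and 0.171 TPM in KO and 11 and 8.57 TPM in WT adipose tissue (-3.31, SE 0.58, limma adjusted p = 0.0865). Ska1, which ties kinetochores to microtubules, was at 0 and 0.0285 TPM in KO and 6.72 and 5.45 TPM in WT adipose tissue (-2.80, SE 0.53, limma adjusted p = 0.111). Stmn1, which destabilises microtubules, was at 31.3 and 149 TPM in KO and 397 and 366 TPM in WT adipose tissue (-2.45, SE 0.65, limma adjusted p = 0.335). Oip5 and Ska1 were at or near 0 in both KO libraries, and Stmn1 was high in both WT libraries, which hardly differed. The 5′ ends of Oip5 and its neighbour Nusap1 overlap on opposite strands by 208 bases in RefSeq, and the sources used here do not say whether the counting used strand, so reads there cannot be told apart. Nusap1, a spindle protein gene, was at 1.99 and 10.3 TPM in KO and 33.8 and 22.2 TPM in WT adipose tissue.

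Other mitosis genes were at 0 or low in KO adipose 2 and nearer to the WT level in KO adipose 3. Mki67, which codes for the proliferation marker Ki-67, was at 2.63 and 12 TPM in KO and 24.8 and 12.7 TPM in WT adipose tissue (-1.45, SE 0.90, limma adjusted p = 0.755). The lower WT library and the higher KO library differed by less than 1 TPM. Ccnb2, a B-type cyclin that activates Cdk1 in mitosis, was at 0 and 46.6 TPM in KO and 112 and 45.4 TPM in WT adipose tissue. Ccna2, the A-type cyclin, was at 0.118 and 21.8 TPM in KO and 56.8 and 30.4 TPM in WT adipose tissue. Cdk1, the kinase that drives entry into mitosis, was at 2.05 and 17.3 TPM in KO and 33.2 and 19.7 TPM in WT adipose tissue. In each case KO adipose 3 stood far nearer to WT adipose 3 than to KO adipose 2. The same held for Aurkb, Birc5 and Cdca8, which belong to the chromosomal passenger complex. Aurkb was at 0 and 20.3 TPM in KO and 23.7 and 21.4 TPM in WT adipose tissue, and Birc5 at 0 and 21.2 TPM in KO and 64.5 and 22.4 TPM in WT. Kif11, the motor that pushes spindle poles apart, was at 0 and 5.48 TPM in KO and 28.5 and 10.5 TPM in WT adipose tissue, lower in both KO libraries than in either WT library. Top2a, which untangles DNA, was at 1.96 and 16.3 TPM in KO and 33.4 and 21.4 TPM in WT adipose tissue. Aurka, a spindle pole kinase, and Ccnb1, the other B-type cyclin, went the other way within number 3, with Aurka at 0 and 16.9 TPM in KO and 28.5 and 5.31 TPM in WT adipose tissue. Ccnb1 was at 2.17 and 28.8 TPM in KO and 39.8 and 10.5 TPM in WT adipose tissue, so both genes overlapped between genotypes. Several more mitosis genes had the same shape. Bub1, a kinase of the spindle checkpoint, was at 0 and 4.21 TPM in KO and 10.7 and 3.73 TPM in WT adipose tissue. Cenpe, a kinetochore motor, was at 0 and 7.21 TPM in KO and 6.61 and 10.1 TPM in WT adipose tissue, and Nuf2, of the complex that binds kinetochores to microtubules, at 0.0126 and 3.37 TPM in KO and 10.1 and 2.76 TPM in WT. All 3 were at or near 0 in KO adipose 2 and within the WT range, or just outside it, in KO adipose 3. Cdc20, an activator of the anaphase-promoting complex, was at 11.2 and 49.1 TPM in KO and 75.9 and 26 TPM in WT adipose tissue. Kif23, a motor of cytokinesis, was at 2.15 and 16 TPM in KO and 18.5 and 11.2 TPM in WT adipose tissue, so KO adipose 3 was again above WT adipose 3. Without KO adipose 3, which leaves KO adipose 2 alone in its group, Stmn1, Ccnb2, Birc5 and Ccna2 passed (adjusted p = 0.04 to 0.0459) and Rrm2 did not. In that fit the spread comes from the other 3 groups and the lone library is assumed to vary like them, so these calls describe KO adipose 2 and not the genotype.

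**Figure D3:**
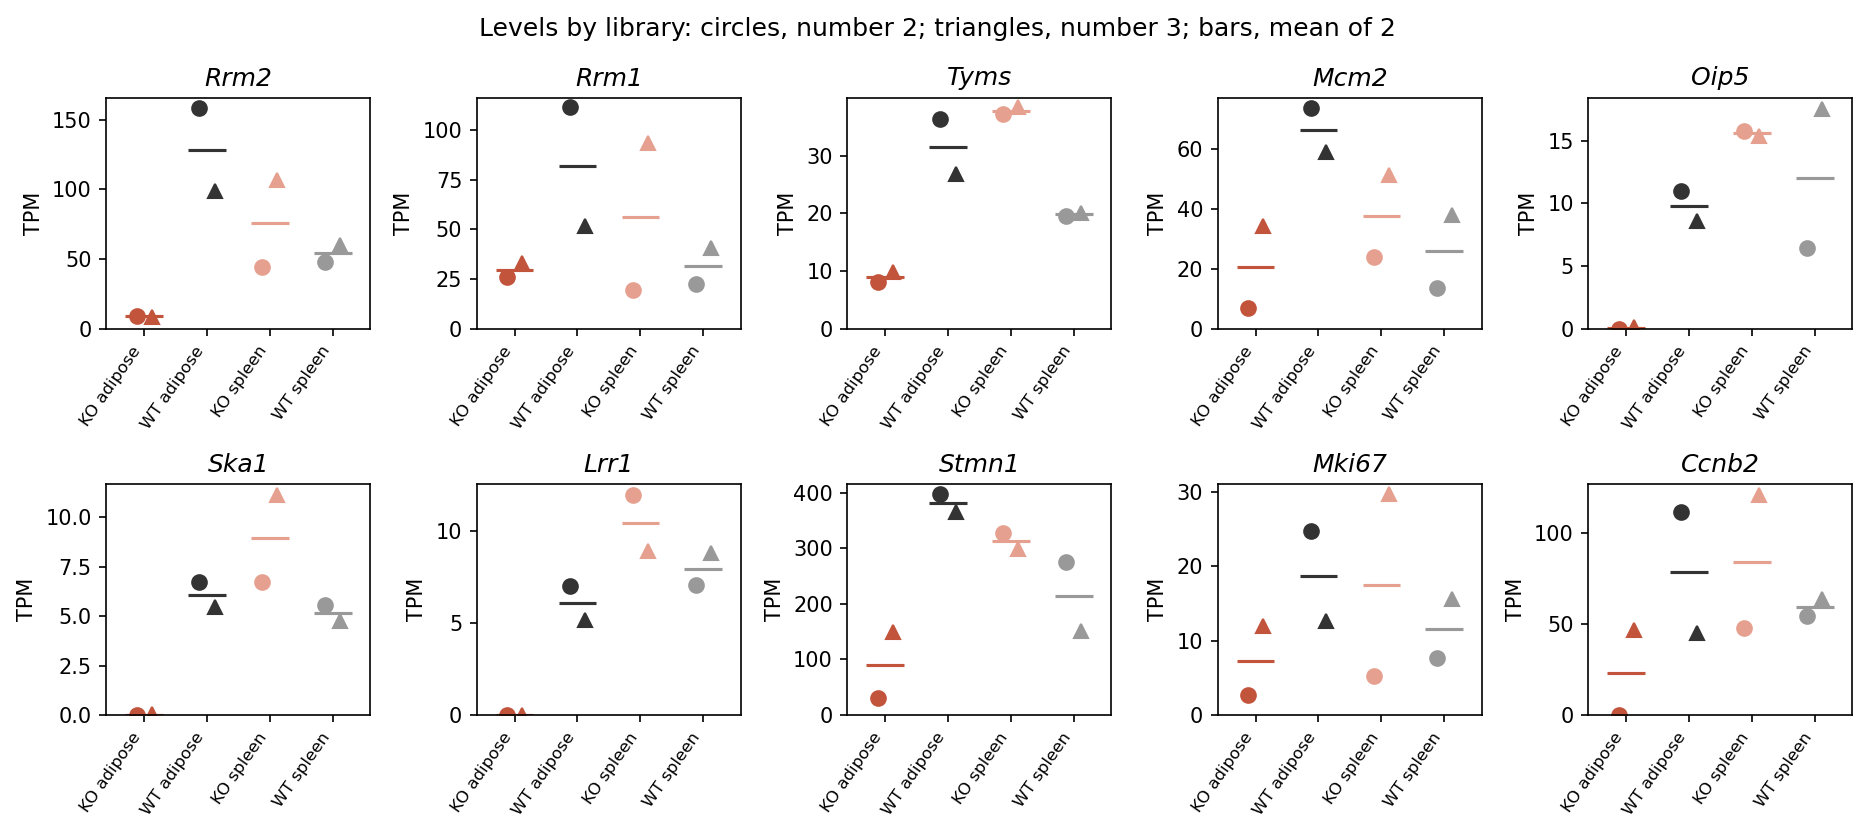
TPM of 10 members in each library (circles, number 2; triangles, number 3; bars, mean of 2 libraries), each panel with its own axis from 0. Rrm2, Oip5, Ska1 and Lrr1 are low in both KO adipose libraries, whereas among adipose libraries Mki67 and Ccnb2 are lowest by far in KO adipose 2 only.

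Taken within library numbers, the genotypes differed very unequally in adipose tissue. Between the libraries numbered 2, all 44 members were lower in KO than in WT, with a median log2 difference of -3.03. Between those numbered 3, 27 of 44 were lower in KO and the median was -0.28, close to the median of -0.21 over all tested genes. By role, the medians within number 3 were -0.55 for the S phase genes, -0.55 for the other replication genes and -0.079 for the mitosis genes, against -2.33, -2.64 and -3.51 within number 2. The lower level within number 2 was thus larger for every role, and within number 3 the median of the mitosis genes alone was nearer to 0 than that of all tested genes. Without KO adipose 2 the median over the members was -0.83 and 39 of 44 were negative, without WT adipose 2 it was -1.01, and without KO adipose 3 it was -2.63. A few members differed about equally in both numbers. Rrm2 differed by -3.95 and -3.36, Oip5 by -3.58 and -3.03, Ska1 by -2.95 and -2.65, and Lrr1 by -3.01 and -2.63 within numbers 2 and 3. Tk1 (-1.88 and -1.44) and Tyms (-2.05 and -1.35) followed, while Ccnb2 (-6.81 and 0.04) and Birc5 (-6.03 and -0.08) were lower within number 2 only.

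**Figure D4:**
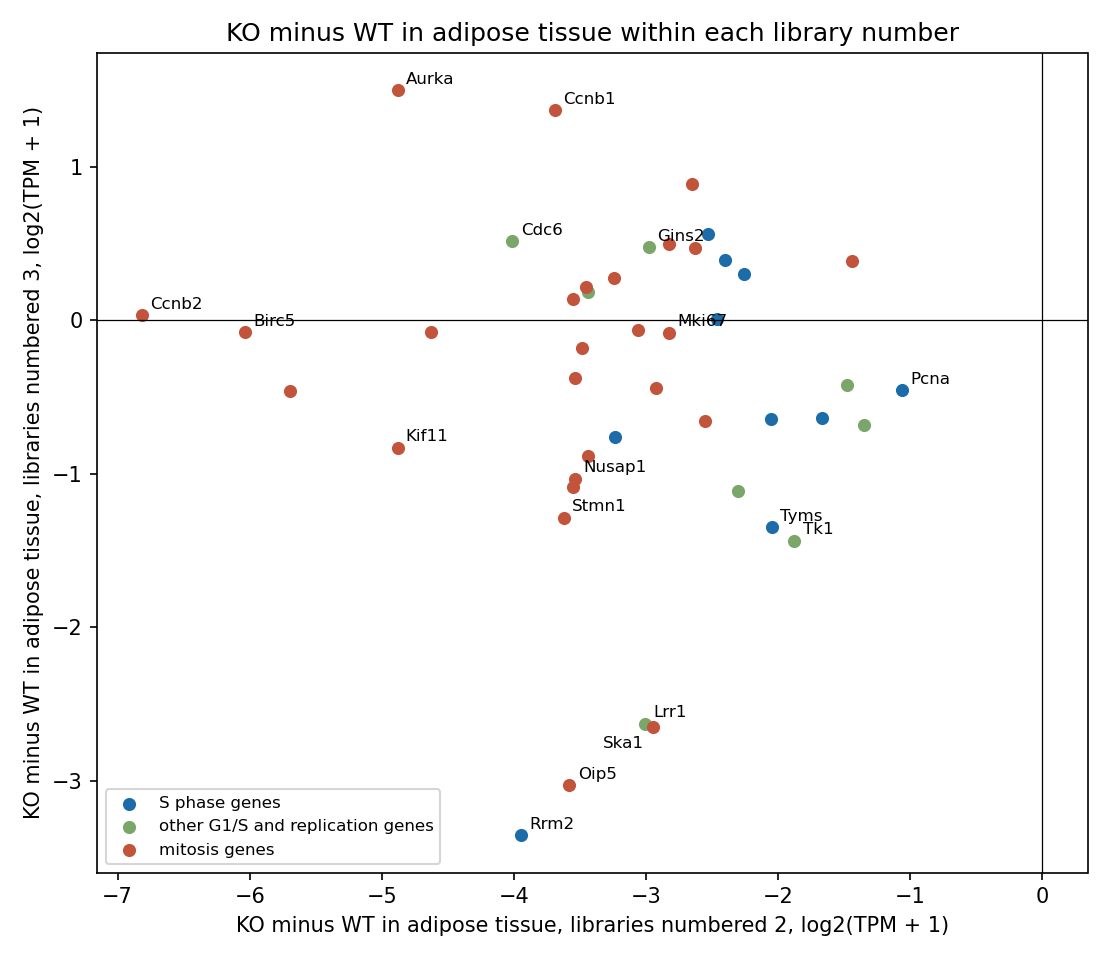
KO minus WT in adipose tissue on the log2(TPM + 1) scale, within the libraries numbered 2 (horizontal) and within those numbered 3 (vertical); each point is 1 member, coloured by role. All points lie left of 0, 27 lie below 0, and Rrm2, Oip5, Ska1 and Lrr1 form the lowest points at about -3 on the vertical axis.

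The promoters of these members were searched for the letters of known control elements. RefSeq promoter windows of 300 bases, from 250 before to 50 after the start site (build GRCm38.p6, whereas the reads were mapped to mm9), were matched by symbol for 35 of the 44 members. Both strands were searched for E2F-type letters (TTTGGCGC, TTTCCCGC, TTTGCCGC or TTTCGCGC), CHR-type letters (TTTGAA or TTCGAA) and the CCAAT box (CCAAT). No match of one set holds a match of another, and overlapping matches within a set were counted separately. E2F-type letters were in 4 of 9 S phase promoters, 1 of 6 of the other replication genes and 1 of 20 mitosis promoters, against 4.12% of the 9413 promoters of tested genes. CHR-type letters were in 2 of 9, 1 of 6 and 15 of 20 of these promoters in the same order, against 14% of tested genes. A CCAAT box was in 8 of 9, 2 of 6 and 17 of 20, against 39.2%. A match is a description of letters and not of a bound site. Of the members lowest in both KO adipose libraries, Rrm2 had 1 CCAAT box, Oip5 had 4 of them and 1 CHR-type match, and the letters searched were not in the window of Lrr1. They are shown with Mcm6, which had 3 E2F-type matches, of which a pair overlap, and whose levels overlapped between genotypes, and with Ccnb2 and Cdk1, which in KO adipose 3 stood near WT adipose 3. All are printed 5′ to 3′ on the strand of the gene, with matches in capitals. The first 3 sequences are of members low in both KO libraries. Since the window of Lrr1 held none of the searched letters, none of those letters could be common to all 3. Other elements were not searched for. Ska1, also low in both KO libraries, was not among the 35 matched members.
Rrm2 (chr12:24708004-24708303, plus strand): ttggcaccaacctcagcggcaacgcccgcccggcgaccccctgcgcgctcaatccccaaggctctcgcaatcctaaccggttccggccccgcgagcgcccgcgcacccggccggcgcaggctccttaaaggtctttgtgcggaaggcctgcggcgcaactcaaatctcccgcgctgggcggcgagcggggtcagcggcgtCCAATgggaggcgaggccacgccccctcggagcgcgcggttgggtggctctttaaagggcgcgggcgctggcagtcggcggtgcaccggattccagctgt
Oip5 (chr2:119618456-119618755, minus strand): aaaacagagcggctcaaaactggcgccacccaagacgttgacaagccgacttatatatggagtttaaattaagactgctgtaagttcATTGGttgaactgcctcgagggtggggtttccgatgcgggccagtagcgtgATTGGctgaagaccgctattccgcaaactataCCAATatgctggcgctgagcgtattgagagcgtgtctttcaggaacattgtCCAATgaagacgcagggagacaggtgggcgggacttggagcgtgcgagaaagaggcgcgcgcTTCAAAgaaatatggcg
Lrr1 (chr12:69168564-69168863, plus strand): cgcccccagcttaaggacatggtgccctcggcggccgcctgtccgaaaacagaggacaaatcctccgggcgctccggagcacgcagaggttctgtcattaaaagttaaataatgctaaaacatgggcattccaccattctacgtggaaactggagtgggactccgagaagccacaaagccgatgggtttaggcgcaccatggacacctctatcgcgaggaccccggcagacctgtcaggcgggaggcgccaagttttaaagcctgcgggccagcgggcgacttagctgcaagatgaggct
Mcm6 (chr1:128359656-128359955, minus strand): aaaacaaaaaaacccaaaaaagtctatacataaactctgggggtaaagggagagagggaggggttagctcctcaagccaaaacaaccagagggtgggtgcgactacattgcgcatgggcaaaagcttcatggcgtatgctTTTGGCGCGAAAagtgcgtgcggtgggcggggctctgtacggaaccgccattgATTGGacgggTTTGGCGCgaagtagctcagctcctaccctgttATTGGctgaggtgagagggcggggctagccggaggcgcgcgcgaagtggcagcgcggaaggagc
Ccnb2 (chr9:70421505-70421804, minus strand): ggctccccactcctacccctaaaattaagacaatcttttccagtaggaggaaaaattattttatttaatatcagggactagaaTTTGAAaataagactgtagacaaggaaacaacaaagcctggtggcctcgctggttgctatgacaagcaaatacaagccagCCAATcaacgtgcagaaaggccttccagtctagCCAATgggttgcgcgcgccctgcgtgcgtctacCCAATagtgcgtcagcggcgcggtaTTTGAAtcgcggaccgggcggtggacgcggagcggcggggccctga
Cdk1 (chr10:69352863-69353162, minus strand): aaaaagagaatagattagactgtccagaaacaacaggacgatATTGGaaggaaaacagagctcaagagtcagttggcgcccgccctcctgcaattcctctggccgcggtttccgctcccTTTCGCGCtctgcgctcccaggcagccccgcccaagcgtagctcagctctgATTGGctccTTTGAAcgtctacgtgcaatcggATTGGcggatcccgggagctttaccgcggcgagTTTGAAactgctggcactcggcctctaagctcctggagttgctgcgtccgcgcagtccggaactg

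In spleen, the question is the same for cells that live in a lymphoid organ. There 43 of 44 members had positive log2 fold changes of KO against WT (median 0.45), where the median over all tested genes was -0.12. None passed by limma, and 1 had an unadjusted p under 0.05, while over all genes 0% passed and 0.478% had an unadjusted p under 0.05. The genotypes were without overlap, with KO higher, for 11 of 44 members, where 5.93% of tested genes were so. Tyms had the smallest p, at 37.2 and 38.5 TPM in KO and 19.5 and 20.1 TPM in WT spleen (0.90, SE 0.37, limma adjusted p = 1). Its libraries agreed closely within each genotype. Tk1 was at 21.4 and 24.2 TPM in KO and 9.54 and 17.7 TPM in WT spleen (0.76, SE 0.53, limma adjusted p = 1). Cdk1 was at 28.2 and 44.1 TPM in KO and 21.1 and 18.2 TPM in WT spleen (0.82, SE 0.77, limma adjusted p = 1). Stmn1 was at 328 and 299.6 TPM in KO and 276 and 151 TPM in WT spleen (0.62, SE 0.65, limma adjusted p = 1). Ska1 was at 6.74 and 11.1 TPM in KO and 5.55 and 4.75 TPM in WT spleen (0.66, SE 0.53, limma adjusted p = 1). These 4 genes were without overlap too, with more spread between libraries than Tyms. Cdc45 was also higher without overlap (0.59, SE 0.47, limma adjusted p = 1), whereas Pcna (0.42, SE 0.42, limma adjusted p = 1), Mcm2 (0.60, SE 0.77, limma adjusted p = 1) and Uhrf1 (0.82, SE 0.84, limma adjusted p = 1) overlapped between genotypes.

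In spleen 23 of 26 mitosis genes were higher in KO spleen 3 than in KO spleen 2. Mki67 was at 5.2 and 29.7 TPM in KO and 7.71 and 15.5 TPM in WT spleen (0.20, SE 0.90, limma adjusted p = 1). Rrm2 was at 44.5 and 107 TPM in KO and 47.9 and 60.3 TPM in WT spleen (0.35, SE 0.47, limma adjusted p = 1). Kif20a, a motor of cytokinesis, was at 1.94 and 21.8 TPM in KO and 3.16 and 11 TPM in WT spleen. KO spleen 2 was the lowest of the 4 spleen libraries for all 3 of these genes and KO spleen 3 the highest. Plk1, a kinase of mitotic entry and exit, was at 6.89 and 36.3 TPM in KO and 13.1 and 16.8 TPM in WT spleen, with the same order of KO libraries at the ends. Within number 2, 27 of 44 members were higher in KO (median 0.16), and within number 3, 42 of 44 (median 0.80). For the 26 mitosis genes the medians were -0.044 within number 2 and 0.91 within number 3. Without KO spleen 3, 19 of 44 members had positive fold changes and the median over the members was -0.21. Leaving out KO spleen 2 gave 1.04, leaving out WT spleen 3 gave 0.71 and leaving out WT spleen 2 gave 0.14. The macrophage list summed to 55.7 and 190.2 TPM in KO and 867 and 326 TPM in WT spleen, and the erythroid list to 785 and 63217 TPM in KO and 10739 and 26957 TPM in WT spleen. The erythroid list was highest in KO spleen 3, and its part in these levels was not tested.

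**Figure D5:**
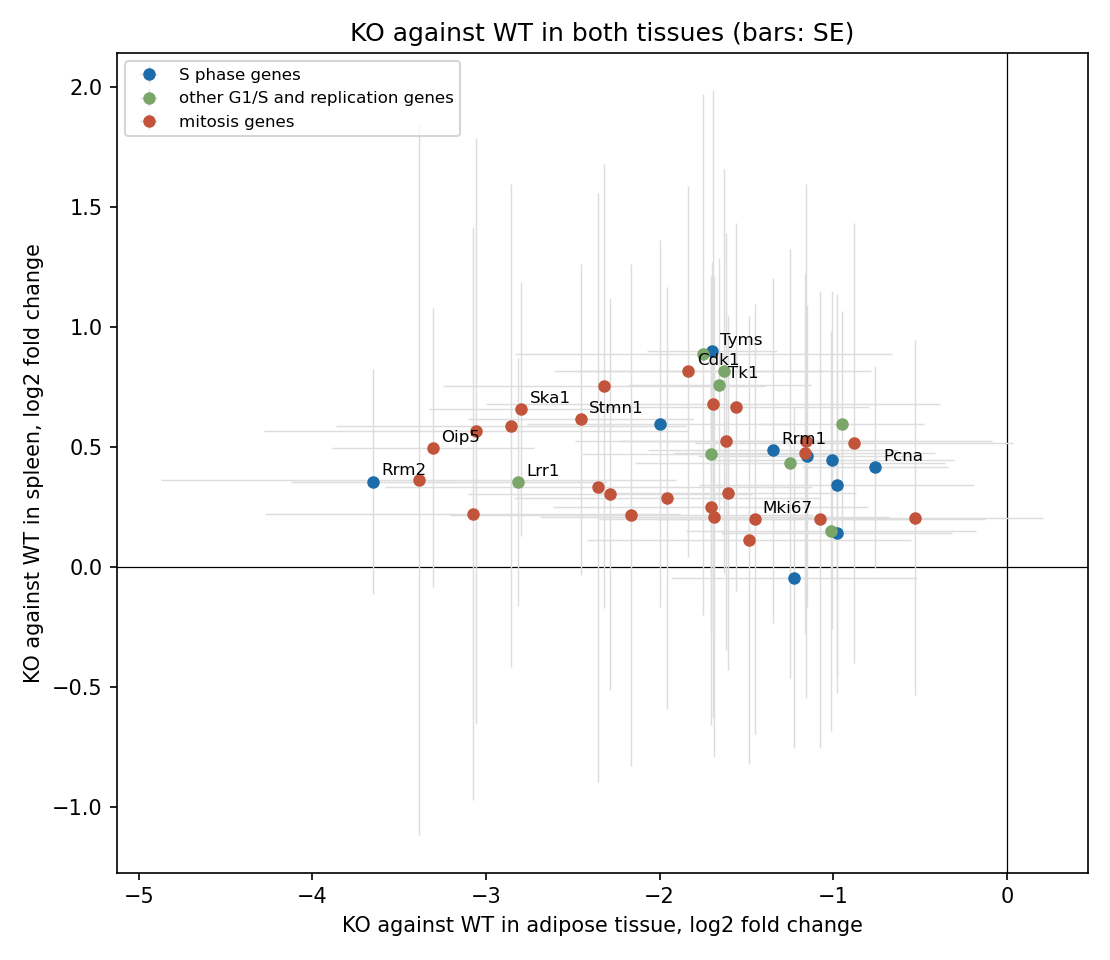
Log2 fold change of KO against WT in adipose tissue (horizontal) and in spleen (vertical) for the 44 members, with limma's SE as bars. All points lie left of 0 and all but Mcm4 lie above 0, and most spleen bars cross 0.

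The difference between these genotype effects was tested as an interaction. For 9 of 44 members KO lay below WT in adipose tissue and above WT in spleen, each without overlap, where 1.19% of all tested genes did. All 44 members had negative interaction values (adipose tissue minus spleen, median -2.20), against a median of -0.17 over all tested genes. Without KO adipose 2 the median over the members was -1.37, and without WT adipose 2 it was -1.41. None passed after adjustment, where 0.0299% of all genes did, all of them positive. An unadjusted p under 0.05 was seen for 12 of 44 members and for 3.06% of all tested genes. Rrm2 had the smallest p (-4.01, SE 0.66, limma adjusted p = 0.155), followed by Tyms (-2.60, SE 0.53, limma adjusted p = 0.355). Among the mitosis genes the smallest were Oip5 (-3.80, SE 0.82, limma adjusted p = 0.433) and Ska1 (-3.45, SE 0.75, limma adjusted p = 0.433), then Stmn1 (-3.07, SE 0.92, limma adjusted p = 0.986). Lrr1 led the other replication genes (-3.17, SE 0.73, limma adjusted p = 0.51), before Tk1 (-2.42, SE 0.74, limma adjusted p = 0.99) and Cdc45 (-1.54, SE 0.67, limma adjusted p = 1). Mcm2 (-2.60, SE 1.08, limma adjusted p = 1) and Mki67 (-1.65, SE 1.27, limma adjusted p = 1) did not pass.

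Adipose tissue was then compared with spleen within each genotype. The KO comparison uses the same KO adipose libraries as the comparison of genotypes in adipose tissue, so their values are not independent. In KO cells all 44 members had negative fold changes of adipose tissue against spleen (median -1.61, against 0.16 over all tested genes). The test was passed by 4 members, all lower in adipose tissue, which were Oip5, Lrr1, Ska1 and Rrm2. Over all genes 1.08% passed in either direction and 0.15% as lower. Oip5 was at 0 and 0.171 TPM in KO adipose tissue and 15.8 and 15.4 TPM in KO spleen (-3.94, SE 0.58, limma adjusted p = 0.0267). Lrr1 was at 0 and 0 TPM in KO adipose tissue and 12 and 8.95 TPM in KO spleen (-3.51, SE 0.52, limma adjusted p = 0.0267). Ska1 was at 0 and 0.0285 TPM in KO adipose tissue and 6.74 and 11.1 TPM in KO spleen (-3.25, SE 0.53, limma adjusted p = 0.0357). Rrm2 was at 9.3 and 8.76 TPM in KO adipose tissue and 44.5 and 107 TPM in KO spleen (-2.80, SE 0.47, limma adjusted p = 0.0386). All 4 genes were without overlap and rested on low adipose values in both libraries. Tyms did not pass (-1.97, SE 0.37, limma adjusted p = 0.0568), but did with the replicate number as a block (adjusted p = 0.0463), as did those 4. Without both KO libraries numbered 2, in which Foxp3 was low, limma called 0 members and 0 of all genes (7 members and 1627 genes at an unadjusted p under 0.05). Without KO adipose 2, KO adipose 3 stands alone in its group, so the values describe that library. The log2 fold changes were then -3.51 for Lrr1, -3.82 for Oip5, -3.23 for Ska1 and -2.84 for Rrm2. Rrm2 lost its call without KO adipose 2, and Rrm2 and Ska1 lost theirs without WT adipose 3. Without KO adipose 3, KO adipose 2 again stands alone, and the log2 fold changes were -5.75 for Birc5, -6.27 for Ccnb2 and -3.28 for Stmn1. None of the 4 genes kept its call in that fit. The same held without WT adipose 2, either KO spleen library or either WT spleen library. The median over the members was -0.64 without KO adipose 2, -1.04 without KO spleen 3 and -2.63 without KO adipose 3.

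Over all members in KO cells, the tissues were without overlap for 21 of 44, all lower in adipose tissue, where 14.6% of tested genes were lower without overlap. This held for all 8 of the other replication genes, 4 of 10 S phase genes and 9 of 26 mitosis genes. Tk1 was at 4.34 and 2.87 TPM in KO adipose tissue and 21.4 and 24.2 TPM in KO spleen (-2.38, SE 0.53, limma adjusted p = 0.0935). Pcna was at 141 and 111 TPM in KO adipose tissue and 354 and 215 TPM in KO spleen (-1.14, SE 0.42, limma adjusted p = 0.314). Stmn1 had a larger fold with more spread (-2.17, SE 0.65, limma adjusted p = 0.21), and Gins2 differed by a similar amount (-2.0, SE 0.89, limma adjusted p = 0.402). Gins2 differed by -3.84 within number 2 and by -0.15 within number 3, and by -0.50 without KO adipose 2 against -3.50 without KO adipose 3. Mki67 overlapped between the tissues (-1.01, SE 0.90, limma adjusted p = 0.692), with KO spleen 2 below KO adipose 3. In number 2 the median difference over the members was -2.02 and in number 3 it was -1.24, so unlike the genotype effect it was below -1 in both. When libraries were rescaled to an equal sum of the T cell core list, 39 of 44 members stayed lower in KO adipose tissue and none passed.

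In WT cells the tissues did not separate these genes by the test. Here 38 of 44 members had positive fold changes of adipose tissue against spleen (median 0.59, against 0.32 over all tested genes), and none passed, where 0.164% of all genes passed in either direction and 0.135% as higher. At an unadjusted p under 0.05 there was 1 member, Rrm2, where 13% of all tested genes were. Both adipose libraries were above both spleen libraries for 13 of 44 members, below the 37.8% of all tested genes that were. Rrm2 had 158 and 98.9 TPM in WT adipose tissue and 47.9 and 60.3 TPM in WT spleen (1.20, SE 0.47, limma adjusted p = 0.346). Mcm2 had 73.8 and 59.1 TPM in WT adipose tissue and 13.7 and 38 TPM in WT spleen (1.48, SE 0.77, limma adjusted p = 0.452). Rrm1 (1.30, SE 0.72, limma adjusted p = 0.477), Bub1b of the spindle checkpoint (1.34, SE 0.74, limma adjusted p = 0.479) and Tpx2, which activates Aurora A on the spindle (1.47, SE 0.93, limma adjusted p = 0.53), were higher without overlap as well and did not pass. Tyms (0.63, SE 0.37, limma adjusted p = 0.498), Stmn1 (0.90, SE 0.65, limma adjusted p = 0.579) and Mki67 (0.65, SE 0.90, limma adjusted p = 0.776) did not pass either, nor did Cdc45 (0.56, SE 0.47, limma adjusted p = 0.625), Ccne1 (0.61, SE 0.74, limma adjusted p = 0.742) or Uhrf1 (0.63, SE 0.84, limma adjusted p = 0.769). Lrr1 alone was lower without overlap in adipose tissue. WT adipose 2 was above WT spleen 2 for 43 of 44 members (median 1.39), while WT adipose 3 was above WT spleen 3 for 16 of 44 (median -0.46). The direction of the set in WT cells therefore depended on the library number, and without WT adipose 2 the median was -0.061 with 23 of 44 members negative. After quantile normalization 25 of 44 members were positive (median 0.12).

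Other genes of the same processes were examined from lists of known members by role. Of 41 other replication genes, 40 had negative fold changes of KO against WT in adipose tissue (median -0.67) and 17 were lower without overlap, with none past the test. Over all tested genes the median was -0.27 and 27.5% were lower without overlap. Of 50 other mitosis genes, 46 were negative (median -1.28) and 21 lower without overlap, against the same 27.5% of all tested genes, with none past the test. Cdca5, the gene of sororin, which holds sister chromatids together, was at 0 and 3.32 TPM in KO and 22 and 17.7 TPM in WT adipose tissue (-3.32, SE 0.71, limma adjusted p = 0.174). Both KO libraries lay far below both WT libraries. In spleen 37 of 41 replication genes (median 0.34) and 39 of 50 mitosis genes (median 0.23) were positive in KO against WT, again with none past the test. Rfc4, a subunit of the clamp loader, was at 91.2 and 88.8 TPM in KO and 48.9 and 61.8 TPM in WT spleen (0.70, SE 0.36, limma adjusted p = 1). It was at 20.0 and 26.2 TPM in KO and 67.9 and 42 TPM in WT adipose tissue (-1.19, SE 0.36, limma adjusted p = 0.464).

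Regulators of the cycle went in both directions between the tissues. Of 36 tested regulators, 22 had positive fold changes of adipose tissue against spleen in KO cells (median 0.07, below the 0.16 over all tested genes) and 2 passed, both higher in adipose tissue, where 0.927% of all tested genes did. Btg2, which restrains proliferation and is also an immediate early gene, was at 1110.1 and 861 TPM in KO adipose tissue and 195 and 134 TPM in KO spleen (2.59, SE 0.39, limma adjusted p = 0.0292). In WT cells it passed as well, at 1199 and 1942 TPM in adipose tissue and 239.6 and 155 TPM in spleen (2.98, SE 0.39, limma adjusted p = 0.0392). Cdkn1c, the gene of the CDK inhibitor p57, was at 16.7 and 33.9 TPM in KO adipose tissue and 0.648 and 2.02 TPM in KO spleen (3.48, SE 0.60, limma adjusted p = 0.0424). Against WT adipose tissue, where it was at 3.26 and 2.21 TPM, it did not pass (2.75, SE 0.60, limma adjusted p = 0.178). Cdkn1c was thus above 16 TPM in both KO adipose libraries and under 4 TPM in the other 6, and both KO adipose libraries also carried the fibroblast and mesothelium transcripts given above. The part of those cells in its level was not tested. Cdkn1a, the gene of the CDK inhibitor p21, had 42.3 and 88.4 TPM in WT adipose tissue and 4.62 and 3.53 TPM in WT spleen and did not pass (3.62, SE 0.70, limma adjusted p = 0.108). Ccnd3, a D-type cyclin of lymphocytes, was at 108 and 105 TPM in KO and 241 and 190.0 TPM in WT adipose tissue, without overlap (-0.99, SE 0.41, limma adjusted p = 0.672). Of the 36 regulators, 31 were negative in KO against WT adipose tissue (median -0.80) and none passed. Btg2 lost its call in KO cells without KO adipose 3 (limma adjusted p = 0.0827), without either KO spleen library (0.12 and 0.172) or without either WT spleen library (0.0704 and 0.0716), and in WT cells without any 1 of the 8 libraries (0.0532 to 0.317). Cdkn1c lost its call without any 1 library other than KO adipose 2 (0.0688 to 0.357). Its call was also lost with a pseudocount of 0.1 (0.0695), without a filter on low values (0.152), after rescaling to the T cell core list (0.149), with the compared libraries alone (0.256) and without both KO libraries numbered 2 (0.129). Without a filter Btg2 was at an adjusted p of 0.101 in KO and 0.166 in WT cells, with the compared libraries alone at 0.141 and 0.144, and without both KO libraries numbered 2 at 0.147 and 0.144. After rescaling it lost its call in WT cells (0.0983) and not in KO cells (0.0289).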

How the data were processed

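The authors deposited a single table with 8 columns of TPM. The unit was identified from the values, since each column sums to 1000000. The genome build was mm9, per the submitters' processing notes. The sources used here do not give the aligner, counter, annotation or treatment of near-identical copies. Per the labels' protocols, cDNA came from a SMARTer kit for small cell numbers and was tagmented with Nextera XT. Depth is unknown, so no counting interval is given.

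Groups were compared with limma 3.58.1 (R 4.3.3, variance trend) on log2(TPM + 1), for the 13376 genes that reached 1 TPM in 2 or more libraries. All 44 members passed this filter. All 8 libraries entered 1 fit of 4 group means (4 residual degrees of freedom, 1 spread per gene). P-values were adjusted by Benjamini-Hochberg over all tested genes within each of 5 comparisons, and called under 0.05. The added 1 TPM shrinks the fold changes of low genes. Alternatives were pseudocounts of 0.1 and 5, no filter and a filter at 5 TPM, quantile normalization, rescaling to a T cell core list, the compared libraries alone, the replicate number as a block, and leaving out libraries. The fit was tested on simulated data, in which genes varied independently and each gene had the same spread in every group. In the real data the difference between numbers 3 and 2 had a standard deviation over tested genes of 1.49 in KO adipose tissue and 0.70 in WT spleen. The simulation therefore does not cover unequal spread or members that move together. Promoters were searched with Python 3.11.15.

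The members and lists were chosen with earlier results of these data known, so lists are given by counts and medians. Named were Rrm2, Mki67, Tyms, every member past the threshold and the 3 members of smallest p per role; other members were named by role, and genes outside the members from the 4 of smallest p per list. The file headers put the word exp before the library numbers. The difference between numbers 3 and 2 correlated between groups with r = 0.128 to 0.382 across tested genes, so the numbers were taken as a possible pairing.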

Additional observations from a re-analysis of the deposited data

Results flagged for a closer look

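In 9 members KO was below WT in adipose tissue and above WT in spleen, in each tissue without overlap between the libraries. Over all tested genes 1.19% showed this pattern. Tyms had an interaction value, the KO against WT log2 fold change in adipose tissue minus that in spleen, of -2.60. It was -1.54 for Cdc45, -2.42 for Tk1, -3.17 for Lrr1, -2.65 for Cdk1, -3.62 for Birc5, -3.07 for Stmn1, -3.45 for Ska1 and -2.23 for Spc25. None of these interaction values passed limma's test after adjustment over all genes (adjusted p = 0.355 for Tyms, the smallest of the 9). The members move together between libraries, so these are not 9 separate observations. Within number 3, the log2 difference of KO against WT in adipose tissue was small for some of them. It was -0.061 for Spc25, -0.078 for Birc5, -0.18 for Cdk1 and -0.42 for Cdc45. For the rest it was -1.29 (Stmn1), -1.35 (Tyms), -1.44 (Tk1), -2.63 (Lrr1) and -2.65 (Ska1). In spleen the nearest Lrr1 values were 8.95 TPM in KO and 8.8 TPM in WT.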

How the results depend on the processing

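In KO against WT adipose tissue the number of members past the threshold was 1, and it was 2 with a pseudocount of 0.1 and 0 without a filter on low values, after rescaling to the T cell core list or with the 4 adipose libraries alone. It ranged from 0 to 4 when 1 library was left out. For adipose tissue against spleen in KO cells it was 4, and it was 0 with a pseudocount of 5, without a filter, after rescaling, with the KO libraries alone and without both KO libraries numbered 2, and 0 to 3 when 1 library was left out. In the other 3 comparisons it was 0 under every setting run. The cause of these changes was not tested.

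Leaving out 1 library moved the medians most. For S phase genes they ranged from -1.90 to -0.55 (KO against WT in adipose tissue), -0.21 to 0.95 (in spleen), -1.64 to -0.43 (adipose tissue against spleen in KO), 0.088 to 1.45 (in WT) and -2.32 to -0.96 (interaction). For mitosis genes they ranged from -3.01 to -0.64, -0.36 to 1.12, -2.79 to -0.56, 0.13 to 1.06 and -3.44 to -1.03 in the same order. Of the genes named with a test, some changed sign when 1 library was left out, none of them past the threshold, and none changed sign under the other settings. In KO against WT spleen, Mcm2 was -0.11 without WT spleen 2 (up to 1.30 without another library). Mki67 there was -0.26 without WT spleen 2 and -0.95 without KO spleen 3 (up to 1.35), and Rrm2 -0.27 without KO spleen 3 (up to 0.98). In adipose tissue against spleen in KO, Mki67 was 0.15 without KO spleen 3 (down to -2.16). In WT, without WT adipose 2, Ccne1 was -0.38 (up to 1.60) and Uhrf1 -0.22 (up to 1.47).

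Over all genes, 38 were called in KO against WT adipose tissue, and 0 to 343 across settings. For adipose tissue against spleen the counts were 144 in KO (0 to 663) and 22 in WT (0 to 78), and for the interaction 4 (0 to 177). The replicate block gave 43, 236, 78 and 0 calls in these comparisons, with 1, 5, 0 and 0 members. In KO spleen against WT the block called 0, as did the fit without it. Rescaling to the T cell core list moved the median of all genes in KO against WT adipose tissue to 0.14, against -0.27, and that of the members to -1.15, against -1.67. Quantile normalization gave -0.089 and -1.37. TPM keeps no depth, so whether a value of 0 lies below detection cannot be told.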

Other observations

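Both KO adipose libraries lay below all 6 other libraries for 13 of 44 members, where 4.95% of all tested genes did. This pattern was picked out after the values were seen. It held for Rrm2, Tyms and Pcna among the S phase genes, for Ccne1, Cdc45, Tk1 and Lrr1 among the other replication genes, and for Cdk1, Birc5, Stmn1, Oip5, Ska1 and Spc25 among the mitosis genes. Spc25, a subunit of the kinetochore complex that binds microtubules, was at 3 and 4.72 TPM in KO adipose tissue and 32.3 and 4.97 TPM in WT adipose tissue. Set against the T cell core list, the summed members stood at 0.0414 and 0.259 times that list in KO adipose tissue, against 0.273 and 0.19 times in WT adipose tissue. In spleen this ratio was 0.141 and 0.269 in KO, against 0.12 and 0.171 in WT. KO adipose 2 was the lowest of the 8 libraries by this ratio too, and KO adipose 3 lay between the WT adipose libraries. The T cell core sum itself was lowest in KO adipose 3, at 3571 TPM, which raises the ratio of that library.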
